A study of Mus musculus with 6 samples.

Results

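The posterior Hox genes of the Hoxa and Hoxd clusters, Hoxa9, Hoxa10, Hoxa11, Hoxa13, Hoxd9, Hoxd10, Hoxd11 and Hoxd13, were followed across the cell types and tissue regions of the adult mouse uterus. They were chosen by name, as 8 of the 24077 genes of the single-cell table and 8 of the 30828 genes of the spatial tables, and all 8 had a row in each. Hox genes encode homeodomain transcription factors that lie in 4 clusters in mammals and are switched on in an order along the body axis that follows their order along the chromosome. In the female reproductive tract, members of the Hoxa cluster are known for a layered pattern: Hoxa9 in the oviduct, Hoxa10 in the uterus, Hoxa11 in the uterus and cervix, and Hoxa13 in the upper vagina. HOXA10 and HOXA11 are needed in the uterine stroma for implantation and decidualization, and the Hoxd genes of the same number are their paralogs. PBX and MEIS proteins are the usual DNA-binding partners of HOX proteins.

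The study treated newborn female CD-1 mice with the synthetic estrogen diethylstilbestrol (DES, 1 mg/kg/day) or with the corn oil vehicle (CO) on days 1 to 5 of life and collected uteri at 12 months. All animals were adult females of this outbred stock, CO mice were taken in estrus and DES mice were in persistent estrus, and the DES sections held adenocarcinoma. The single-cell data were 1 library pooled from 2 CO mice and 1 library pooled from 4 DES mice, so that DES and CO cells were compared with no replicate and no test. The spatial data were 4 longitudinal sections of frozen uterus (CO A, CO B, DES A and DES B), each from its own mouse and tissue block. Of these, CO B carried a tissue fold and DES B gave poorly resolved clusters.

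There were 32387 CO and 16312 DES cells, whose median depth was 6779 and 10154 UMIs (unique molecular identifiers, each a captured transcript). Of these, 12253 CO and 9701 DES cells carried a cell type in the study's annotation, and 180 barcodes were shared by both libraries, 32 of them on annotated cells. Sections held 1357 to 1834 spots and 9117099 to 12506177 UMIs, and a spot is a small area that can hold several cells. Epithelial, endothelial, myocyte, pericyte and mesothelial cells each ranked first for their own markers in the CO library, but the stromal markers summed highest in mesothelial cells (17801 CPM, counts scaled to a total of 1000000 UMIs). CO lymphocytes also ranked first for the myeloid markers among the CO cell types (3976 CPM). The cells named Ctla2a in the annotation ranked first for none of the lists. The DES library held 1 stromal and 5 endothelial cells and no pericytes or Ctla2a cells, so stromal levels after DES could be read in the sections only.

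The Hoxa members lay on the minus strand of chromosome 6 (build GRCm38): Hoxa9 at chr6:52223100-52231089, Hoxa10 at chr6:52231197-52240854, Hoxa11 at chr6:52242106-52245810 and Hoxa13 at chr6:52257694-52260880. The Hoxd members lay on the plus strand of chromosome 2: Hoxd13 at chr2:74668310-74671599, Hoxd11 at chr2:74679557-74687016, Hoxd10 at chr2:74691924-74695105 and Hoxd9 at chr2:74697727-74700208. Some members share their interval with a noncoding gene, namely Hoxa9 with the microRNA gene Mir196b on the same strand, Hoxa11 with Hoxa11os on the other strand, and Hoxd10 and Hoxd11 with Gm28309 on the same strand. Reads in these shared stretches cannot be assigned with certainty, and the counting of strand is not given in the sources used here.

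RefSeq promoters (GRCm38.p6, 250 bases before to 50 after each transcription start) were matched for all 8 members, as 10 promoters, since Hoxa10 and Hoxd11 have alternative starts. The 3 Hoxd promoters whose genes were lower in DES sections are shown (for Hoxd11 the 1 of its 2 that held a match) with that of Hoxa11, the Hoxa member whose level differed least in muscle-rich spots. Capitals mark 2 kinds of match, read on both strands: GGTCA, or on the opposite strand TGACC, the arm of an estrogen response element, and ATNAATCA (TGATTNAT), a composite HOX-PBX site.
Hoxd9 promoter, chr2:74697513-74697812, plus strand: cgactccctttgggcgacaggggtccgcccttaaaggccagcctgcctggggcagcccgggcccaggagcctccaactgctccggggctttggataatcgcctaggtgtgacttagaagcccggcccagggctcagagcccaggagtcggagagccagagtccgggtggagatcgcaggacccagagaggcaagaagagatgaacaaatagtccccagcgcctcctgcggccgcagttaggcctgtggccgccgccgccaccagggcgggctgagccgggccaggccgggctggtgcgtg
Hoxd10 promoter, chr2:74691641-74691940, plus strand: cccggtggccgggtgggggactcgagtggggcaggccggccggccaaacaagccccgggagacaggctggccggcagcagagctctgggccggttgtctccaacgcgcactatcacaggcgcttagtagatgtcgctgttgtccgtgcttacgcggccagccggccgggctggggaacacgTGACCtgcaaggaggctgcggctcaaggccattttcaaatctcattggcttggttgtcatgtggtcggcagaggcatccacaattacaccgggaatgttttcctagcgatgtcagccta
Hoxd11 promoter, chr2:74682073-74682372, plus strand: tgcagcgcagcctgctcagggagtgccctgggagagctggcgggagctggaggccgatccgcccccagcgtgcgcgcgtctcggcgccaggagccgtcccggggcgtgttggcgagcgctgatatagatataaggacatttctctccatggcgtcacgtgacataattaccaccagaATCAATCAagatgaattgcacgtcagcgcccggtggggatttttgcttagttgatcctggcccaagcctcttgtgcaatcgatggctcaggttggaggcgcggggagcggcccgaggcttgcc
Hoxa11 promoter, chr6:52245761-52246060, minus strand: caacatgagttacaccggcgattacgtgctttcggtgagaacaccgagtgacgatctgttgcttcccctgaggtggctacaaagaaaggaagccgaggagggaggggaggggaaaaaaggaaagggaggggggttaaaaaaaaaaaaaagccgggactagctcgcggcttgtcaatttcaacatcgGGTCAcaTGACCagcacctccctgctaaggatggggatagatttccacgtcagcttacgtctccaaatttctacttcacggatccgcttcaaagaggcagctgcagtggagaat

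Of the 10 member promoters, 4 held the arm GGTCA, against 40.5% of all 32851 promoters of the same length, and 1 held ATNAATCA, against 3.22%. The full palindromic estrogen response element, both arms 3 bases apart, occurred in 0 of the 10 and in 0.0700% of all promoters. In the Hoxa11 promoter both arms stood 2 bases apart in place of the 3 of the full palindrome. The member promoters had a median of 20.5 CpG dinucleotides in 300 bases and 59.7% GC, against 7 and 52.7% over all promoters. They ranged from 4 CpG, in the Hoxa9 promoter and 1 of the Hoxd11 promoters, to 45 in that of Hoxa13. A match of letters is a description of the sequence and not evidence of binding.

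In the single-cell libraries 6 of the 8 posterior Hox genes were found in mesenchymal, mesothelial and muscle cells, Hoxd9 and Hoxd10 also in endothelial cells, and Hoxa13 and Hoxd13 were nearly undetected. In epithelial cells all were at or below 3.38 CPM. Hoxa10 was highest in the CO Ctla2a cells, at 1011 CPM (95% exact Poisson interval 974 to 1049, 465 cells). It followed in stromal cells at 252 CPM (243 to 261, 1326 cells) and pericytes at 247 CPM (198 to 304, 75 cells), whose intervals overlapped. Myocytes were next at 175 CPM (151 to 202, 85 cells), above the mesothelial cells at 119.6 CPM (117 to 122, 6866 cells). Endothelial cells were at 5.71 CPM (3.19 to 9.41) and epithelial cells at 3.38 CPM (2.98 to 3.81), both below lymphocytes at 14.7 CPM (10.1 to 20.6), a cell type that should lack the gene. These intervals and those below cover counting error only.

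**Figure D1:**
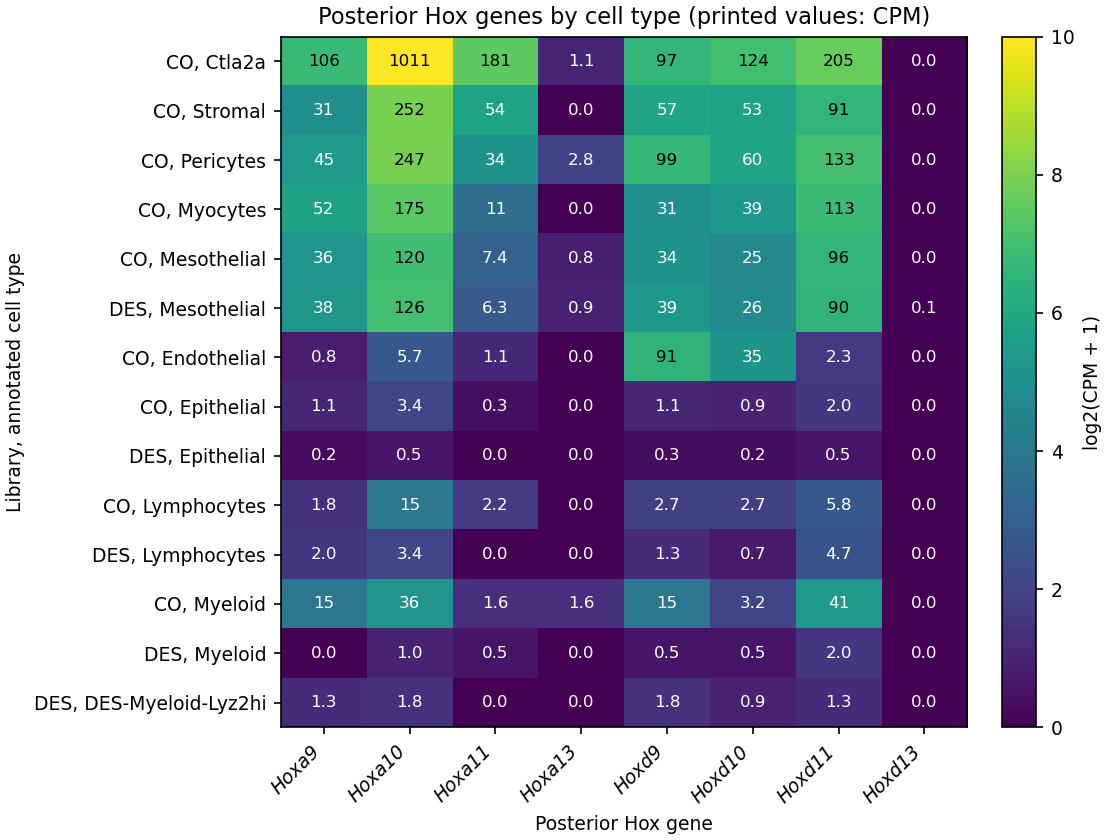
Level of each posterior Hox gene (columns) in each annotated cell type of the CO and DES single-cell libraries (rows), with the CPM printed in the cell. Hoxa10 reached 1011 CPM in Ctla2a cells and stayed at or below 3.38 CPM in epithelial cells, while Hoxd9 alone of the members stood at 90.5 CPM in endothelial cells.

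Thinned to 3000 UMIs per cell, 91.6% of Ctla2a cells (88.6 to 94.0%, exact binomial interval) and 47.0% of stromal cells (44.3 to 49.8%) had a Hoxa10 UMI. Unthinned, the shares were 97.8% and 77.8%. The thinned share was 26.9% in CO mesothelial cells, 1.55% in endothelial cells and 0.898% in epithelial cells. In lymphocytes, with a median of 4033 UMIs against 23458 in CO epithelial cells, it was 3.87% (2.02 to 6.66%). Thinned shares leave out cells with under 3000 UMIs, which were 113 of 423 CO lymphocytes and 21 of 2583 CO epithelial cells. The epithelial and endothelial shares were thus not above that of lymphocytes. As the cells differed in depth before thinning, this comparison cannot show whether these shares were background.

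Hoxa11, which marks uterus and cervix, was likewise highest in Ctla2a cells. It stood at 181 CPM in Ctla2a cells (165 to 197) and 54.4 CPM in stromal cells (50.3 to 58.8), and its next level was that of pericytes at 34.0 CPM (17.6 to 59.5), whose interval overlapped that of stromal cells. Myocytes had 10.9 CPM (5.65 to 19.1) and CO mesothelial cells 7.39 CPM (6.82 to 8.0), which could not be told apart at this depth. Hoxa9, the oviductal member, was flatter. Its level was 106 CPM in Ctla2a cells (94.7 to 119), 52.0 CPM in myocytes (39.4 to 67.3), 45.4 CPM in pericytes (25.9 to 73.7), 35.8 CPM in the mesothelium of CO (34.5 to 37.1) and 30.8 CPM in stromal cells (27.7 to 34.1). Myocytes, pericytes and mesothelial cells had neighbouring intervals that overlapped or nearly met, and the Hoxa9 level of stromal cells was below that of mesothelial cells, the reverse of Hoxa10 and Hoxa11.

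Hoxa13 and Hoxd13, the most posterior members, were close to absent. Hoxa13 had 65 UMIs in CO mesothelial cells, which is 0.782 CPM (0.604 to 0.997), and 59 UMIs in DES mesothelial cells, which is 0.913 CPM (0.695 to 1.18). It had 0 UMIs in CO stromal cells, where the interval of a count of 0 reaches 0.314 CPM, and 3 UMIs in Ctla2a cells. Hoxd13 had 4 UMIs in DES mesothelial cells and 0 in each annotated CO cell type.

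Hoxd11 was highest in Ctla2a cells, like Hoxa10, but its stromal level was the lowest of the 5 listed here, as for Hoxa9. It stood at 205 CPM in Ctla2a cells (188 to 222), 133 CPM in pericytes (98.0 to 177), 113 CPM in myocytes (94.0 to 135), 96.1 CPM in the CO mesothelium (94.0 to 98.2) and 91.2 CPM in stromal cells (85.8 to 96.8). Apart from the Ctla2a cells at the top, each of these levels had an interval overlapping that of its neighbour. In endothelial cells Hoxd11 was at 2.28 CPM (0.838 to 4.97), below the 5.78 CPM of lymphocytes.

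Hoxd9 and Hoxd10 differed from the other members in endothelial cells. Hoxd9 was at 90.5 CPM there (79.4 to 103), within the range of Ctla2a cells at 97.1 CPM (85.9 to 109) and pericytes at 99.3 CPM (69.2 to 138) and above stromal cells at 57.3 CPM (53.0 to 61.8). Hoxd10 was at 35.0 CPM in endothelial cells (28.2 to 42.9), below stromal cells at 53.3 CPM (49.2 to 57.7) and Ctla2a cells at 124 CPM (111 to 137). Lymphocytes held 2.67 CPM of each of these genes. At 3000 UMIs per cell, 18.9% of endothelial cells (14.8 to 23.7%) had a Hoxd9 UMI against 0.645% of lymphocytes (0.0782 to 2.31%). The share of endothelial cells with a UMI of any Hoxa member was 1.86% (0.687 to 4.01%), and with any Hoxd member 27.0% (22.2 to 32.2%). Lymphocytes held 4.52% (2.49 to 7.46%) and 2.90% (1.34 to 5.44%). The Hoxa share of endothelial cells was thus not above that of lymphocytes, and the Hoxd share was. Only 5 endothelial cells were in the DES library, with 7 Hoxd9 UMIs and 1 of Hoxa10.

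Genes of both clusters were found together in Ctla2a, stromal, mesothelial, pericyte and myocyte cells. In Ctla2a cells, 94.99% had a UMI of a Hoxa member, 62.4% of a Hoxd member and 59.7% of both. In stromal cells these shares were 57.1%, 43.1% and 25.2%, and in CO mesothelial cells 34.8%, 35.8% and 12.7%. Both were found in 24 of 63 pericytes and 21 of 84 myocytes, but in 1 of 2562 CO and 1 of 5201 DES epithelial cells and 0.968% of CO lymphocytes. The same cells with more UMIs would show more overlap, so the share with both is a lower limit at this depth.

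With the 29 other Hox genes of the single-cell table included, the Hox clusters had different weight in each cell type, counted over members and other genes alike. In Ctla2a cells 71.0% of all Hox UMIs came from the Hoxa cluster and 24.9% from the Hoxd cluster, and in stromal cells 53.7% and 38.2%. In mesothelial cells the Hoxc cluster entered with 36.9% of Hox UMIs in CO and 41.4% in DES, led by Hoxc8 at 136 and 183 CPM. In endothelial cells 53.1% came from the Hoxb cluster and 39.0% from the Hoxd cluster, where Hoxd8 was at 80.3 CPM. In epithelial cells 96.4% of Hox UMIs in CO and 98.7% in DES came from the Hoxb cluster. The epithelial Hox genes were thus of Hoxb, with Hoxb7 at 109 CPM in CO and 122 CPM in DES and Hoxb8 at 106 and 99.7 CPM.

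**Figure D2:**
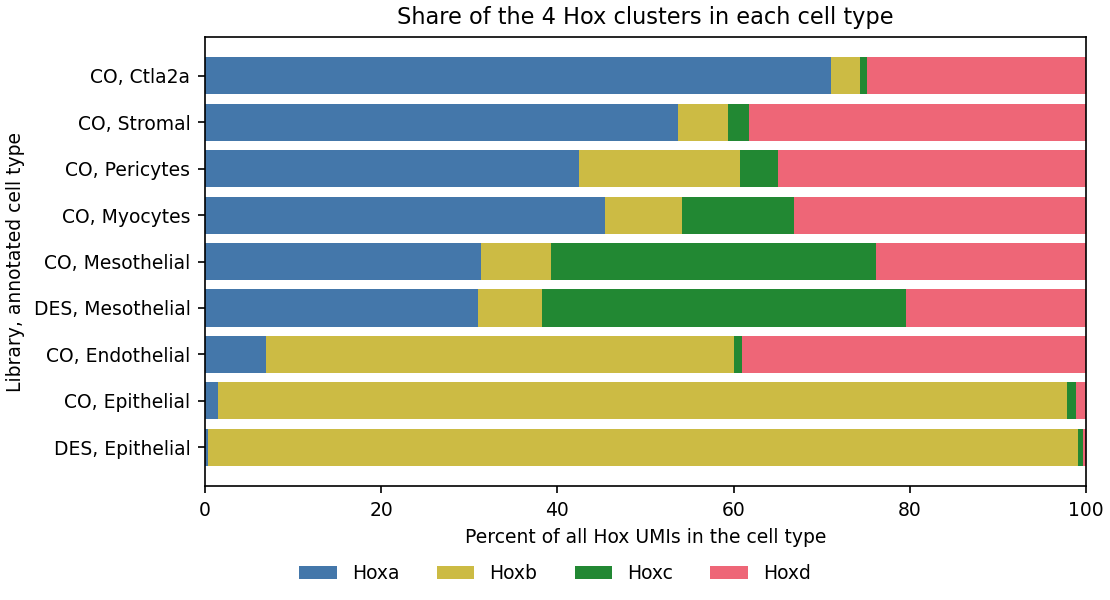
Percent of all Hox UMIs that came from each of the 4 Hox clusters (bar segments) in each annotated cell type of the single-cell libraries. The Hoxb segment fills 96.4% of the CO and 98.7% of the DES epithelial bar, and the Hoxa segment is widest in Ctla2a cells at 71.0%.

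Likeness was measured as Pearson's r of log2(CPM + 1) over 14 cell type groups of at least 50 cells, among 12326 genes, and is a description of groups that share libraries and depth. Hoxa9 was most like Hoxd11 (r = 0.987), Hand2 (0.982) and Hoxa10 (0.974). For Hoxa10 the order was Hand2 (0.983), Hoxd11 (0.976) and Hoxa9 (0.974). Hand2 is a stromal transcription factor that responds to progesterone. Hoxd11 was most like Hoxa9 (0.987), Arhgef25 (0.984) and Hand2 (0.981). Hoxa11 was most like Aff2 (0.970), Lrch2 (0.961) and Gria4 (0.956), Hoxd9 was most like Nsg1 (0.979), Pds5b (0.969) and Jam3 (0.968), and Hoxd10 was most like Lrp3 (0.979) and Tnxb (0.979). No other member was among the genes nearest to Hoxa11, Hoxd9 or Hoxd10. Hoxa13 and Hoxd13 had under 200 UMIs over annotated cells and were not compared.

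Mesothelial cells were the only non-epithelial, non-immune type with many cells in both libraries, and the members differed little between them. The DES to CO ratio of CPM was 1.06 for Hoxa9 (counting interval 1.00 to 1.12), 1.06 for Hoxa10 (1.03 to 1.09) and 1.15 for Hoxd9 (1.09 to 1.21). It was 1.01 for Hoxd10 (0.944 to 1.07), 0.936 for Hoxd11 (0.905 to 0.968) and 0.846 for Hoxa11 (0.745 to 0.961). For Hoxa13 it was 1.17 (0.807 to 1.69). Each ratio compares 2 libraries and not the treatments, since the spread between animals was not measured. The share of thinned mesothelial cells with any Hoxa member was 34.8% in CO and 37.0% in DES, and with any Hoxd member 35.8% and 37.1%.

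In epithelium the members were at or below the level of lymphocytes in both libraries. Among epithelial cells outside the basal clusters, Hoxa10 was at 3.38 CPM in CO (266 UMIs, 2583 cells) and 0.506 CPM in DES (83 UMIs, 4608 cells), a ratio of 0.150 (0.116 to 0.192). The ratios of Hoxa9, Hoxd9, Hoxd10 and Hoxd11 lay between 0.195 and 0.260, and that of Hoxa11, on 23 and 4 UMIs, was 0.0835 (0.0210 to 0.244). Lymphocytes moved the same way for Hoxa10, with 14.7 CPM in CO and 3.36 CPM in DES, a ratio of 0.229 (0.0697 to 0.589). Their ratio was 1.13 for Hoxa9 (0.166 to 6.69) and 0.813 for Hoxd11 (0.275 to 2.19), on 4 and 3 and on 13 and 7 UMIs. For Hoxd9 it was 0.503 (0.0497 to 2.81, 6 and 2 UMIs) and for Hoxd10 0.252 (0.00547 to 2.07, 6 and 1 UMIs). Hoxa11 had 5 and 0 UMIs in CO and DES lymphocytes. The part of background in the epithelial values was not tested. Thinned epithelial cells with a UMI of any member made up 3.04% in CO (2.41 to 3.79%) and 0.808% in DES (0.583 to 1.09%). The same share of lymphocytes was 6.45% (3.99 to 9.79%) and 5.16% (2.61 to 9.05%), above both epithelial shares. Epithelial cells were deeper before thinning (median 23458 and 21900 UMIs in CO and DES, against 4033 and 5599 in lymphocytes). Whether the epithelial shares were background can therefore not be read from this comparison.

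Over the 15 CO epithelial clusters Hoxa10 ranged from 1.09 to 10.7 CPM with a median of 3.31 CPM. The highest, cluster 9, rested on 21 UMIs, and its interval of 6.61 to 16.3 CPM lay above that of all CO epithelial cells and overlapped that of CO lymphocytes. Cluster 9 was also the highest of the CO clusters for Hoxa11, at 1.53 CPM on 3 UMIs (0.314 to 4.46). Over the 16 DES epithelial clusters Hoxa10 ranged from 0 to 0.918 CPM with a median of 0.446 CPM. Hoxd11 ranged from 0 to 2.92 CPM in CO and from 0 to 1.24 CPM in DES clusters. In the basal clusters 8 and 11 of the DES library, which carry the keratins and p63 of stratified epithelium, Hoxa10 was at 0.889 and 0.990 CPM.

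In the sections Hoxd9, Hoxd10 and Hoxd11 were lower after DES, while no Hoxa member was called by edgeR. Hoxd9 stood at 40.6 and 57.6 CPM in CO sections A and B against 12.0 and 12.3 CPM in their DES counterparts. Hoxd10 stood at 34.9 CPM in both CO sections against 4.17 CPM (DES A) and 8.30 CPM (DES B). Hoxd11 was at 35.2 CPM (CO A) and 25.7 CPM (CO B) against 5.16 and 7.29 CPM after DES. For all 3 genes both DES sections lay below both CO sections, with a gap wider than the spread within either group.

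Fitted over all genes with edgeR's quasi-likelihood test, Hoxd9 fell by 2.22 on the log2 scale (SE 0.23, adjusted p = 0.0212), which is 4.65-fold. Hoxd10 fell by 2.68 (SE 0.38, adjusted p = 0.0312) and Hoxd11 fell by 2.49 (SE 0.31, adjusted p = 0.0276), which is 5.64-fold. Thus 3 of the 7 members tested (Hoxd13 had no counts) were called lower, against 2.63% of the 14098 genes tested, and none was called higher, against 2.67%. The median log2 fold change of the 7 members was -0.98, beside -0.01 over all genes. With either DES section left out none of the 3 was called, the adjusted p then being 0.119 to 0.150 without DES A and 0.0759 to 0.131 without DES B, while the log2 fold changes stayed between -3.32 and -2.17. An exact permutation test of 2 against 2 sections cannot go below p = 0.333. In whole sections fewer cells of a type and less RNA per cell cannot be told apart.

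**Figure D3:**
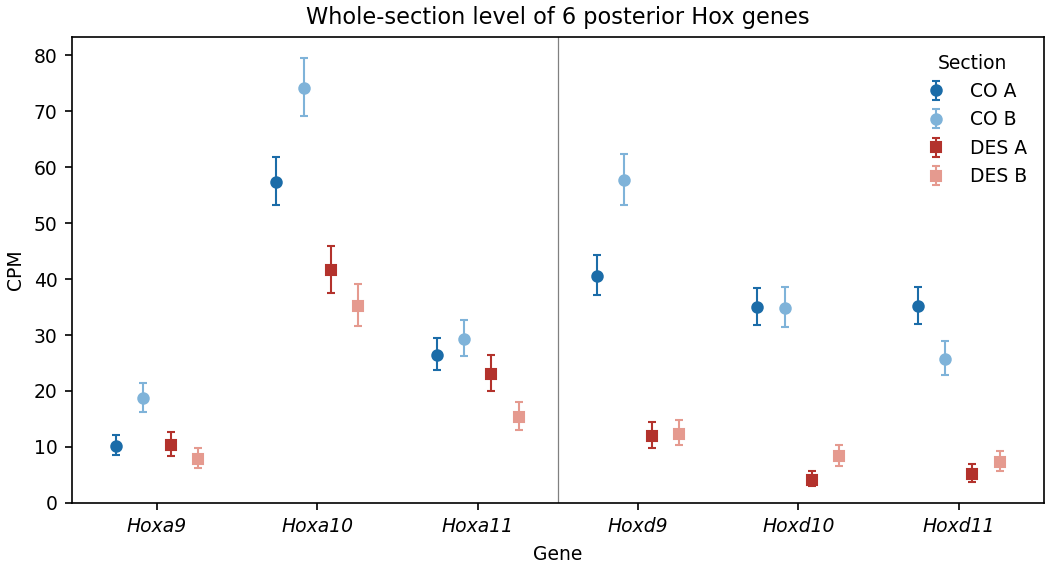
CPM of Hoxa9, Hoxa10, Hoxa11, Hoxd9, Hoxd10 and Hoxd11 in the 4 whole sections, with circles for CO, squares for DES and bars for the 95% exact Poisson interval. To the right of the line, both DES sections lie below both CO sections for each Hoxd gene, as for Hoxd10 at 4.17 and 8.30 against 34.9 CPM.

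Of the Hoxa members of the same sections, Hoxa10 and Hoxa11 lay lower in both DES sections without being called, Hoxa9 overlapped and Hoxa13 had a positive fold change. Hoxa10 was at 57.4 and 74.2 CPM in the CO sections and at 41.6 and 35.2 CPM in the DES sections, A before B, with no overlap. Its log2 fold change was -0.98 (SE 0.19, adjusted p = 0.0597, edgeR), which missed the threshold of 0.05, although DESeq2 called it (adjusted p = 0.00521) and so did edgeR without CO A (0.0133) or without CO B (0.0280). Hoxa11 was at 26.5, 29.3, 23.0 and 15.4 CPM in the same order, again with no overlap, and its log2 fold change of -0.75 (SE 0.24, adjusted p = 0.144) was not called.

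Hoxa9 was at 10.2, 18.7, 10.4 and 7.79 CPM, so that the groups overlapped (log2 fold change -0.87, SE 0.35, adjusted p = 0.223). It was called only without CO A (-1.22, adjusted p = 0.0309). Hoxa13, the vaginal member, had 0 and 19 UMIs in the CO sections and 45 and 7 in the DES sections, or 0, 1.72, 4.94 and 0.709 CPM. Its groups overlapped, and its fitted difference of 1.51 (SE 1.51, adjusted p = 0.604) turned to -0.41 without DES A. The position of each section along the uterus is not given in the sources used here, and its part in the values of these axially ordered genes was not tested. Hoxd13 had 0 UMIs in all 4 sections, with an interval reaching 0.295 CPM in CO A and 0.405 CPM in DES A, and was not tested.

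The tissue makeup of the sections also differed. Summed muscle markers were at 14758 and 16169 CPM in CO and 3562 and 4036 CPM in DES, stromal markers at 2640 and 2644 CPM in CO and 1262 and 819 CPM in DES, and basal epithelial markers at 3.36 and 160 CPM in CO and 9526 and 5644 CPM in DES. All 6 of the muscle and all 6 of the stromal markers were detected in each section. The mesothelial markers, of the cell type with many Hox UMIs in both libraries, ranged from 35.4 to 49.1 CPM over the 4 sections. Endothelial markers, of the cell type that carried Hoxd9 and Hoxd10 in the single-cell data, summed to 56.7 and 82.2 CPM in CO and 33.9 and 35.5 CPM in DES, and pericyte markers to 197 and 261 CPM against 106 and 91.4 CPM. The part of these differences in the Hox values was not tested. The members were therefore also compared within regions, first the spots of the cluster the study called stromal in each section. The remaining spots of each section were ranked by log2 muscle marker counts minus log2 epithelial marker counts, scaled by spot. The top 25% of this ranking were taken as muscle-rich and the bottom 25% as epithelium-rich.

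The ratio of Hoxd UMIs to Hoxa UMIs was compared within each section. The clusters' shares differed between cell types (above), so a change in this ratio and a change in which of these cells a section holds cannot be told apart. Over whole sections it was 1.18 and 0.955 for CO A and CO B, and 0.266 and 0.473 for DES A and DES B. Both DES sections lay below both CO sections. In stromal spots it was 1.26 and 1.28 in CO and 0.109 and 0.478 in DES, and in epithelium-rich spots 0.795 and 1.33 in CO and 0.227 and 0.336 in DES. In muscle-rich spots the groups overlapped, CO A standing alone at 1.26 while CO B was at 0.621 and the DES sections at 0.632 and 0.684. As capture may differ between genes, only differences of this ratio between sections are read, and not its distance from 1.

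**Figure D4:**
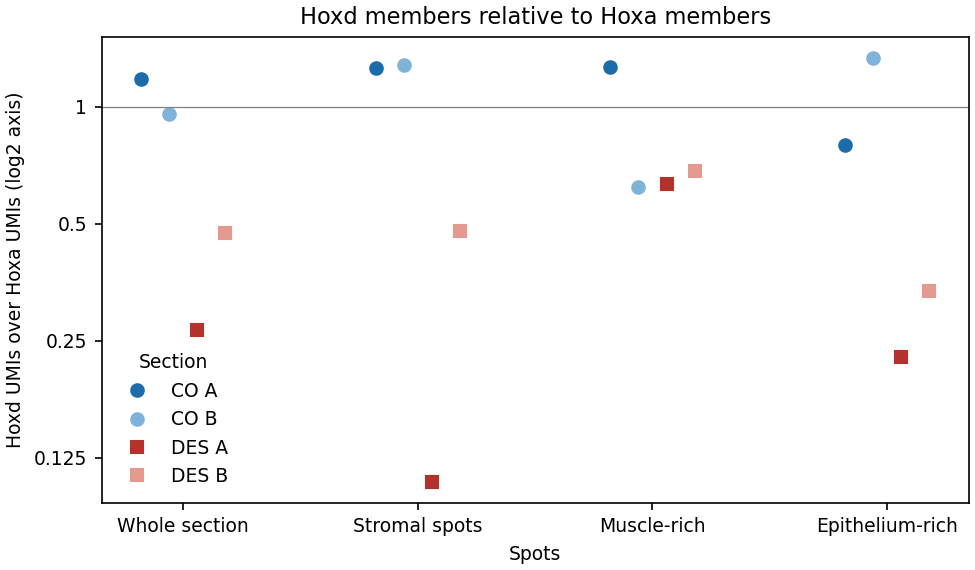
Summed UMIs of the Hoxd members over those of the Hoxa members (log2 axis) in whole sections and in stromal, muscle-rich and epithelium-rich spots, with 1 point per section. DES sections lie below CO sections in whole sections, stromal and epithelium-rich spots, and overlap with them in muscle-rich spots, where CO B was at 0.621.

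In stromal spots (101, 188, 211 and 132 spots in CO A, CO B, DES A and DES B) the Hoxd members again lay lower in both DES sections. Hoxd9 was at 106 and 130.1 CPM in CO A and CO B and at 10.8 and 46.2 CPM in DES A and DES B. Hoxd10 was at 53.7 and 81.3 CPM against 2.95 and 26.0 CPM, and Hoxd11 at 51.9 and 59.6 CPM against 4.92 and 20.2 CPM. The DES A values rested on 11, 3 and 5 UMIs. No member passed the test, however, where 0.673% of the 8914 genes tested were called lower. By edgeR 3 of the 6 members tested, all of the Hoxd cluster, had an unadjusted p under 0.05, as did 1194 of the 8914 genes. DESeq2 called 0 members. The log2 fold changes were -2.33 for Hoxd9 (SE 0.61, adjusted p = 0.118), -2.77 for Hoxd10 (SE 0.77, adjusted p = 0.136) and -2.55 for Hoxd11 (SE 0.61, adjusted p = 0.0897). They rested much on DES A: without it they were -1.31, -1.35 and -1.42, and without DES B -3.57, -4.60 and -3.60.

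With no filter on low counts all 3 Hoxd members were called in these spots. That setting called 714 genes in all, against 71 higher and 60 lower in the main fit. Among the Hoxa members of the same spots, Hoxa10 and Hoxa11 overlapped between the groups. Hoxa10 was at 102 and 145 CPM in CO and 88.6 and 127 CPM in DES, Hoxa11 at 55.5 and 52.0 CPM against 53.2 and 37.5 CPM, and Hoxa9 at 10.7 and 15.2 CPM against 19.7 and 28.9 CPM. The log2 fold changes were -0.27 for Hoxa10 (adjusted p = 0.839), -0.26 for Hoxa11 (0.829) and 0.73 for Hoxa9 (0.630). Hoxa9 was thus the member whose DES sections lay above its CO sections in stromal spots, on a difference that was not called. The summed Hoxa members stood at 168 and 212 CPM in CO and 172 and 193 CPM in DES, and the summed Hoxd members at 211 and 271 CPM in CO and 18.7 and 92.4 CPM in DES.

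The stromal spots themselves were not alike. Their stromal markers were at 6206 and 4716 CPM in CO and 3286 and 2136 CPM in DES, their muscle markers at 963 and 762 CPM in CO and 3170 and 9544 CPM in DES, and their basal epithelial markers at 0 and 90.0 CPM in CO and 7058 and 1998 CPM in DES. Their endothelial markers were at 161 and 232 CPM against 54.2 and 129.9 CPM, and their pericyte markers at 634 and 715 CPM against 207 and 335 CPM. The part of these differences in the Hox values was not tested. Hoxa13 had 11 of its 45 UMIs in DES A in these spots (10.8 CPM, interval 5.41 to 19.4) and 0 UMIs in the stromal spots of CO A, CO B and DES B.

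In muscle-rich spots no member was called by edgeR or DESeq2, where edgeR called 0.907% of 10700 genes lower. By edgeR 3 of the 6 members tested had an unadjusted p under 0.05, namely Hoxa10, Hoxd9 and Hoxd11, as did 1685 of the 10700 genes. Hoxd9 was at 66.8 and 63.0 CPM in CO and 54.9 and 31.2 CPM in DES (log2 fold change -0.85, SE 0.32, adjusted p = 0.238). For Hoxd10 and Hoxd11 the CO sections differed by more than CO B did from DES. Hoxd10 was at 72.8 CPM in CO A but 34.2 CPM in CO B, against 26.8 and 38.6 CPM in DES, and Hoxd11 at 76.3 CPM in CO A but 28.4 CPM in CO B, against 29.3 and 28.0 CPM. Their log2 fold changes were -0.92 (SE 0.41, adjusted p = 0.324) and -1.10 (SE 0.46, adjusted p = 0.294). With each section left out in turn they ranged from -1.36 to -0.28 for Hoxd10 and from -1.65 to -0.24 for Hoxd11. Hoxa10 was at 101 and 111 CPM in CO and 95.1 and 69.9 CPM in DES, and Hoxa11 at 44.4 and 48.6 CPM against 47.6 and 49.3 CPM. Endothelial markers of the muscle-rich spots were higher in both DES sections, at 75.1 and 84.2 CPM in CO and 174 and 142 CPM in DES, while pericyte markers overlapped (242 and 308 against 353 and 275 CPM). Their muscle markers were lower in both DES sections, at 48847 and 50970 CPM against 27230 and 20915 CPM. The part of these markers in the Hox values was not tested.

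In epithelium-rich spots 2 of the 6 members tested were called lower, against 1.77% of 12113 genes. Hoxd10 was at 13.6 and 18.2 CPM in CO and 0.629 and 2.41 CPM in DES, on 2 and 9 UMIs. It fell by 3.56 on the log2 scale (SE 0.58, adjusted p = 0.0385, edgeR), 11.8-fold. Hoxd11 was at 9.89 and 12.2 CPM in CO and 0.943 and 1.88 CPM in DES, and fell by 3.17 (SE 0.48, adjusted p = 0.0339). Both pairs of sections were clear of each other. Hoxd9, at 14.9 and 26.1 CPM against 6.92 and 5.63 CPM, missed the threshold by edgeR (-1.96, SE 0.38, adjusted p = 0.0524), although DESeq2 called it (adjusted p = 0.00575).

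The Hoxa members of the epithelium-rich spots were not called, with log2 fold changes of -0.80 for Hoxa10 (adjusted p = 0.103), -0.88 for Hoxa11 (0.202) and -0.02 for Hoxa9 (0.989). Hoxa10 (29.5 and 28.5 CPM in CO, 22.0 and 17.9 CPM in DES) and Hoxa11 (15.1 and 10.1 against 8.80 and 7.77 CPM) were nonetheless lower in both DES sections. By edgeR 4 of the 6 members tested had an unadjusted p under 0.05, namely Hoxa10, Hoxd9, Hoxd10 and Hoxd11. Of all 12113 genes tested, 3003 did so. Without DES A the log2 fold change of Hoxd10 was -2.92 (adjusted p = 0.148) and that of Hoxd11 -2.75 (0.214), and without DES B they were -4.89 (0.0851) and -3.81 (0.142). With regions of 15% of spots in place of 25%, Hoxd11 lost its call (-2.72, adjusted p = 0.0523) and Hoxd10 did not (-3.93, adjusted p = 0.0358). The log2 fold change of Hoxd9 was -2.30 without CO A and -1.54 without CO B. The stromal markers of these spots were at 1621 and 1036 CPM in CO and 506 and 423 CPM in DES, their endothelial markers at 26.9 and 28.3 CPM against 8.49 and 8.57 CPM, and their pericyte markers at 92.7 and 107 CPM against 43.7 and 33.8 CPM. Their basal epithelial markers were at 4.85 and 77.2 CPM in CO and 9269 and 4831 CPM in DES, and their myeloid markers at 66.4 and 121 CPM against 2266 and 555 CPM. The part of these markers in the result was not tested.

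**Figure D5:**
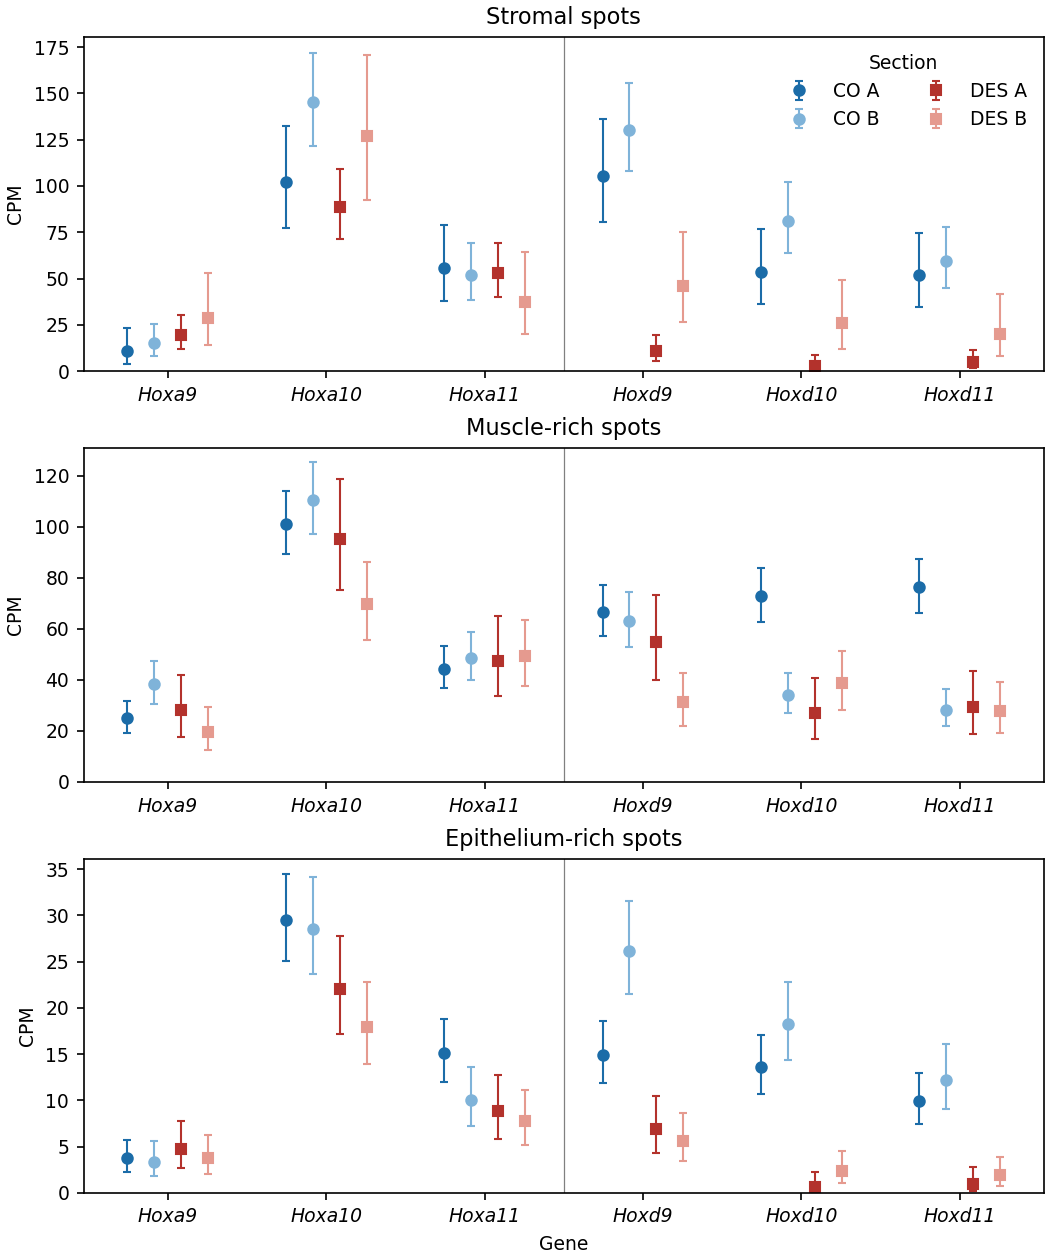
CPM of 6 posterior Hox genes in stromal, muscle-rich and epithelium-rich spots (panels) of the 4 sections, with circles for CO, squares for DES and bars for the 95% exact Poisson interval. The Hoxd genes of DES A are near the bottom of the stromal panel (2.95 to 10.8 CPM), while Hoxa10 and Hoxa11 of the CO and DES sections overlap there.

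Within sections the members were higher in muscle-rich than in epithelium-rich spots. In CO sections 6 of 7 were called higher, against 24.8% of 12871 genes, and in DES sections 6 of 7, against 18.7%. In CO the log2 fold changes were 3.21 for Hoxa9 (SE 0.33), 1.98 for Hoxa10 (SE 0.20), 1.99 for Hoxa11 (SE 0.26), 1.82 for Hoxd9 (SE 0.25), 1.81 for Hoxd10 (SE 0.35) and 2.25 for Hoxd11 (SE 0.38), with edgeR adjusted p from 3.79e-05 to 0.00214. In DES they were 2.70 for Hoxa9 (SE 0.38), 2.26 for Hoxa10 (SE 0.22), 2.77 for Hoxa11 (SE 0.30), 2.96 for Hoxd9 (SE 0.33), 4.58 for Hoxd10 (SE 0.55) and 4.48 for Hoxd11 (SE 0.58). Hoxa13 was not called in either (3.12, adjusted p = 0.104, and 2.71, adjusted p = 0.114). These 6 members kept their calls with each section left out in turn. Stromal markers were also higher in muscle-rich than in epithelium-rich spots, at 3325 and 3542 against 1621 and 1036 CPM in CO, and 2454 and 2037 against 506 and 423 CPM in DES. Pericyte markers were at 242 and 308 against 92.7 and 107 CPM in CO, and 353 and 275 against 43.7 and 33.8 CPM in DES. Mesothelial markers were at 78.2 and 99.9 against 12.1 and 16.3 CPM in CO, and 132 and 127 against 20.4 and 19.6 CPM in DES. Endothelial markers were at 75.1 and 84.2 against 26.9 and 28.3 CPM in CO, and 174 and 142 against 8.49 and 8.57 CPM in DES. The part of these markers in the contrast was not tested.

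The regional contrast of the Hoxd members was steeper in DES, but the difference was not called. It was 2.77 for Hoxd10 (SE 0.67, adjusted p = 0.0516), 2.23 for Hoxd11 (SE 0.72, adjusted p = 0.125) and 1.14 for Hoxd9 (SE 0.42, adjusted p = 0.174), with 0 of 7 members called by edgeR where 4.49% of genes were called in either direction. All 3 had an unadjusted p under 0.05 by edgeR, as did 2480 of the 12871 genes tested. DESeq2 called Hoxd10 (adjusted p = 0.0455). The differences of the Hoxa members were -0.52 for Hoxa9, 0.28 for Hoxa10 and 0.78 for Hoxa11, with adjusted p of 0.322 to 0.662. Endothelial and pericyte markers (above) also stood further apart between these regions in DES than in CO, and their part in the difference was not tested.

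The other Hox genes showed which neighbours of the members moved. Of 31 in the spatial tables, 13 were tested in whole sections, with a median log2 fold change of 0.18. Of these 13, 1 was called higher, against 2.67% of 14098 genes, and 1 lower, against 2.63%. Hoxd8, the next gene of the Hoxd cluster after Hoxd9, was at 19.0 and 14.1 CPM in CO and 4.94 and 5.36 CPM in DES (-1.89, SE 0.28, adjusted p = 0.0338). It thus lay on the side of the Hoxd members. Hoxb9, a paralog of Hoxa9 and Hoxd9, was at 0.960 and 0.906 CPM in CO and 9.21 and 6.88 CPM in DES (2.88, SE 0.37, adjusted p = 0.0278), and next highest were Hoxb3 (1.12, adjusted p = 0.107) and Hoxb8 (0.85, adjusted p = 0.147). In epithelium-rich spots, where 3.04% of genes were called higher, Hoxb9 was the 1 of 9 called, at 4.29 (SE 0.47, adjusted p = 0.0199), with Hoxb3 at 0.79 and Hoxb7 at 0.40. The whole CO sections held only 12 and 10 Hoxb9 UMIs, so its CO level in these spots rested on few. Basal epithelial markers of these spots were at 4.85 and 77.2 CPM in CO and 9269 and 4831 CPM in DES, and their part was not tested. In single epithelial cells Hoxb9 was at 2.11 CPM in CO and 4.58 CPM in DES.

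In muscle-rich spots Hoxb8 was the 1 of 8 called higher (2.64, SE 0.53, adjusted p = 0.0444), though not by DESeq2, against 1.56% of genes, followed by Hoxb7 (2.11) and Hoxb6 (1.75). Epithelial markers of these spots, of the cell type that carried Hoxb7 and Hoxb8 in the single-cell data, were at 169 and 208 CPM in CO and 445 and 1007 CPM in DES. Their basal epithelial markers were at 1.90 and 7.20 CPM against 1476 and 2348 CPM, with Trp63 at 0 in both CO sections, and the part of these markers was not tested. In stromal spots 0 of 7 were called by either tool, the highest being Hoxb8 (1.30), Hoxb3 (0.16) and Hoxb2 (0.12). By edgeR 2 of the 7 were at an unadjusted p under 0.05, as were 1194 of 8914 genes. Between regions the Hoxb genes went opposite to the members. In CO sections 7 of 10 were called lower in muscle-rich than in epithelium-rich spots, against 25.9% of genes, all of the Hoxb cluster, from -2.48 for Hoxb2 to -5.12 for Hoxb6. Called higher were 2 of 10, near the 24.8% of all genes. They were Hoxa7 (5.74, adjusted p = 0.00119) and Hoxd8 (2.17, adjusted p = 0.000714), neighbours of the members in their own clusters. Hoxa7 had only 31 and 20 UMIs in the whole CO sections. Hoxb9 was next at 1.48 and not called. In DES sections the same contrast called 8 of 10 lower, against 14.6% of genes. It called 2 of 10 higher, Hoxa7 (5.17) and Hoxd8 (3.47), near the 18.7% of all genes, with Hoxb5 next at -2.08.

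Among the noncoding RNAs of the Hox clusters, 4 of the 6 looked for had a row in the spatial tables and 2 were tested in whole sections. Hoxd3os1, of the Hoxd cluster, had a log2 fold change of -1.32 (adjusted p = 0.0746) and Hotairm1, of the Hoxa cluster, 1.22 (adjusted p = 0.419). Hoxd3os1 was at 11.1 CPM in Ctla2a cells and 12.6 CPM in CO mesothelial cells, and at 0.355 CPM in CO epithelial cells. Hotair and Hottip were at or below 0.0852 CPM in each cell type of at least 50 cells.

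Of the 9 genes for HOX cofactors tested in whole sections, edgeR called 0 and DESeq2 called 1, Meis2. By edgeR 3 of the 9 were at an unadjusted p under 0.05, as were 3438 of 14098 genes. Over all genes DESeq2 called 1791 in whole sections. Meis2 was the cofactor with the highest positive difference, at 27.0 and 39.5 CPM in CO and 80.6 and 88.9 CPM in DES sections (1.15, SE 0.23, edgeR adjusted p = 0.0626). In epithelium-rich spots it was called, at 3.54 and 11.8 CPM in CO and 86.1 and 99.1 CPM in DES (3.38, SE 0.53, adjusted p = 0.0350). It was the only 1 of the 8 cofactors tested there that was called, against 3.04% of 12113 genes called higher. In dissociated epithelial cells Meis2 was at 3.92 CPM in CO and 147 CPM in DES, and Meis1 at 39.5 and 179 CPM. Both were thus higher in the DES than in the CO epithelial cells, and the members themselves were at or below the level of lymphocytes in both.

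In the regional contrast 7 of 8 cofactors were called higher in muscle-rich spots of CO sections, against 24.8% of genes, and 3 of 8, Pknox2 and Meis3 among them, in those of DES sections, against 18.7%. DESeq2 called 6 and 2, without Pbx2 in CO and without Meis3 in DES. The values for Pbx2, Pbx3, Pbx4, Meis3, Pknox1 and Pknox2 in whole sections ranged from -1.29 for Pbx4 to 0.16 for Pbx3, with adjusted p from 0.133 to 0.983. In stromal spots 0 of 7 cofactors and in muscle-rich spots 0 of 8 were called by edgeR or DESeq2, with 2 at an unadjusted p under 0.05 in each. Over all genes 1194 of 8914 and 1685 of 10700 were at that p by edgeR.

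Of the genes known to respond to HOXA10 or HOXA11 in uterus, 6 of 7 were tested in whole sections and 2 were called lower, against 2.63% of genes. Ptger3, a prostaglandin E2 receptor, was at 19.0 and 23.7 CPM in CO and 2.63 and 2.23 CPM in DES (-3.34, SE 0.26, adjusted p = 0.0183). Itgb3, the integrin beta 3 chain linked to receptivity, was at 51.1 and 41.1 CPM against 13.3 and 12.9 CPM (-2.03, SE 0.20, adjusted p = 0.0212). Emx2, which HOXA10 is known to repress, was at -0.45 (adjusted p = 0.173), Ptger4 at -1.42 (0.0784, though 0.00190 by DESeq2), Pgr, the progesterone receptor, at 0.12 (0.900) and its chaperone Fkbp4 at 0.18 (0.668). Igfbp1 had 0 UMIs in the sections.

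Ptger3 and Itgb3 were carried by different cell types. Ptger3 was at 98.0 CPM in CO and 129 CPM in DES mesothelial cells and 67.5 CPM in myocytes, but at 2.39 CPM in stromal cells. Itgb3 was highest in stromal cells at 110 CPM and pericytes at 93.6 CPM. In muscle-rich spots, where the muscle markers were at 48847 and 50970 CPM in CO and 27230 and 20915 CPM in DES, Ptger3 was at 75.1 and 63.9 CPM against 18.3 and 12.3 CPM (-2.44, SE 0.32, adjusted p = 0.0111), the 1 of 6 responders called there, against 0.907% of genes called lower, and the part of the muscle content was not tested. In stromal spots 0 of 5 responders were called by either tool, with 2 at an unadjusted p under 0.05, beside 1194 of 8914 genes. In epithelium-rich spots edgeR called 0 of 5, with 4 at an unadjusted p under 0.05, beside 3003 of 12113 genes. DESeq2 called Itgb3, Ptger4 and Pgr, and 1189 genes in all there.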

How the data were processed

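The authors deposited raw UMI counts per gene and cell for 2 single-cell libraries (1 CO, 1 DES) and per gene and spot for 4 Visium sections (2 CO, 2 DES). Per the labels, these counts came from bcl2fastq 2.20.0.422, Cell Ranger 3.0.1 and Space Ranger 1.2.2 on mm10, as named in the submitters' processing notes. The authors' methods removed potential doublets, but whether the deposited counts still hold them is not given in the sources used here, and no doublet caller was run. Cell types, epithelial clusters and spot clusters were taken from the deposited annotation, in which 350 single-cell barcodes had no counts column. Columns not mapped to a sample numbered 0. The posterior Hox genes and all gene lists were chosen with earlier results of these data known.

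CPM was a group's summed UMIs scaled to a total of 1000000, with exact Poisson 95% intervals and a floor of 3 counts. Shares of cells were taken after thinning to 3000 UMIs, with cells below 3000 UMIs left out and exact binomial 95% intervals. Both kinds of interval cover counting error only. A CO to DES comparison of single cells has 1 library a side and was not tested. Section counts were summed by region and fitted across all genes with the edgeR 4.0.16 quasi-likelihood test (R 4.3.3, TMM scaling), with Benjamini-Hochberg adjustment and a threshold of 0.05. Standard errors were the log2 fold change over the square root of F. The p-values measure only the spread between these sections, each from its own mouse and tissue block. DESeq2 1.42.0, no filter, regions of 15% in place of 25%, leaving out each section, and the section letter as a block were alternatives, and stroma-rich spots were added after seeing the data.

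All 8 members were named. Of the other genes, the 3 other Hox genes with the highest fold change in each comparison, the cofactors, the responders, the noncoding RNAs by symbol and, for each member with at least 200 UMIs, its 3 most alike genes were named, and other Hox genes that were called were named as well. Some genes that the rule covers are not reported here. The fit was tested on simulated data of 12847 genes for the whole-section comparison, drawn with the same dispersion for every gene. There it recovered 99 of 100 genes changed 4-fold and 100 of 100 changed 8-fold, with 7 false calls. Smaller changes were not simulated, and real genes need not share a dispersion, so these rates do not carry over to the real sections. Promoters were from RefSeq (GRCm38.p6) and gene positions from an annotation of GRCm38.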

Additional observations from a re-analysis of the deposited data

Results flagged for a closer look

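The contrast between muscle-rich and epithelium-rich spots differed between DES and CO sections, by a test of the difference itself, for 4 genes that are relatives or partners of the posterior Hox genes, 2 of 10 other Hox genes and 2 of 8 cofactors tested, against 4.49% of all genes. The difference (DES minus CO, log2) was 2.44 for Hoxb6 (edgeR adjusted p = 0.0112) and 2.37 for Hoxb8 (adjusted p = 0.0253, not called by DESeq2 at 0.0565). Both were at lower levels in muscle-rich than in epithelium-rich spots in each group, by less in DES. In muscle-rich spots epithelial markers were at 169 and 208 CPM in CO and 445 and 1007 CPM in DES, and basal epithelial markers at 1.90 and 7.20 CPM against 1476 and 2348 CPM, and their part in these differences was not tested. The difference was -1.65 for Meis1 (adjusted p = 0.0176) and -3.63 for Meis2 (adjusted p = 0.00783), which were called higher in muscle-rich spots of CO sections and were not called in DES sections. In epithelium-rich spots Meis2 was at 3.54 and 11.8 CPM in CO and 86.1 and 99.1 CPM in DES.

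Cells left out of the cell type annotation also carried members above the level of lymphocytes. They numbered 20134 in the CO library, with Hoxa10 at 65.9 CPM and Hoxd11 at 38.3 CPM, and 6611 in the DES library, with Hoxa10 at 23.9 CPM and Hoxd11 at 16.9 CPM. The 67 CO myeloid cells, however, were at 35.7 CPM for Hoxa10 (22.4 to 54.1) and 40.6 CPM for Hoxd11 (26.3 to 59.9), so that the Hoxd11 level of the CO cells was not above all immune cells. Lymphocytes were at 14.7 and 3.36 CPM for Hoxa10 in CO and DES, and at 5.78 and 4.70 CPM for Hoxd11. Whether doublets are among the cells without a type was not tested. The median of these cells was 4138 UMIs in CO and 2178 in DES. Dixon's test was not applied, as no group held 4 samples.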

How the results depend on the processing

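Of 381 recomputed log2 fold changes of members, 330 kept their direction and side of the threshold, 11 lost and 32 gained significance and 8 reversed. Reversed were Hoxa13 in whole sections without DES A (-0.41, range over sections left out -0.41 to 7.78), Hoxa10 in stromal spots without CO B (0.01) or DES A (0.070, range -0.63 to 0.070), Hoxa11 in muscle-rich spots with regions of 15% (0.17), Hoxa9 in epithelium-rich spots without CO A (0.08) or DES B (0.10, range -0.14 to 0.10), and the regional difference of Hoxa13 by DESeq2 (0.86) and without DES A (3.49, range -1.64 to 3.49). None of these had been called, and the cause was not tested. For Hoxa13 no value could be given in the regional contrast without CO B, as CO A had 0 UMIs. DESeq2 called 1791 genes in whole sections (747 by edgeR), 1189 in epithelium-rich spots (583), and 1 member (Hoxd10) for the regional difference (0). With no filter, calls numbered 714 in stromal spots (131, members 3), 1115 in muscle-rich spots (264, members 1), 1393 in epithelium-rich spots and 1086 for the difference (578, members 2). Regions of 15% gave 102 in muscle-rich spots, 374 for the difference and 1 member, Hoxd10, in epithelium-rich spots. Stroma-rich spots, an alternative chosen after seeing the data, gave 69 genes and 1 member, Hoxd11 (adjusted p = 0.0458).

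With each section left out in turn, which leaves 1 section in a group whose spread is assumed to be that of the other group, called genes ranged from 3 to 2819 in whole sections (members 0 to 5), 40 to 357 in stromal (0 to 3), 66 to 779 in muscle-rich (0 to 2) and 3 to 2112 in epithelium-rich spots (0 to 3). They ranged from 71 to 1149 for the difference (0 to 3), 1920 to 5433 for the regional contrast in DES and 5758 to 6085 in CO. The lowest whole-section and epithelium-rich counts came without DES B, with 14 and 28 genes without DES A. Sections of CO and DES share only a letter, and same-letter sections did not deviate together (correlations -0.0254 to 0.0898 over 2 pairs). With the letter as a replicate block, calls numbered 453 in stromal spots (members 3), 620 in muscle-rich and 1247 in epithelium-rich spots, where Hoxd9 was also called. As means of counts per 10000 per cell, the mesothelial DES to CO ratios moved to 1.12 for Hoxa9 and 1.09 for Hoxa10, and the other 39 of 41 single-cell ratios moved less than their counting interval. Of 117 levels 36 and of 78 shares 70 moved by more, mostly with no thinning, thinning to 5000 UMIs, or totals without the 20 most abundant genes. Depth limits the spot regions: in DES A Hoxd10 had 3 UMIs in stromal and 2 in epithelium-rich spots.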
